A study of Mus musculus with 35 samples.

Results

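Huntingtin (Htt) and 9 genes whose products bind it, modify it or act beside it were followed in the striatum of mice with an expanded Htt allele and of mice that had lost Hdac2 in their main striatal neurons. The 10 genes, Htt, Hap1, Hip1, Hip1r, Rasd2, Zdhhc17, Zdhhc13, Setd2, Optn and Pacsin1, were picked by symbol from the 39109 entries of the count table, and all 10 passed the filter on low counts in every comparison. RNA of whole striatum was sequenced from 35 mice between 21.71 and 23 weeks of age. Each mouse was either wild type at Htt (Htt+/+) or heterozygous for a knock-in allele (HttQ111/+) that carried 110 to 144 CAG repeats, and either kept Hdac2 (Hdac2 WT) or had both copies removed (Hdac2 KO). There were 8 Htt+/+ Hdac2 WT mice, 7 HttQ111/+ Hdac2 WT mice, 9 Htt+/+ Hdac2 KO mice and 11 HttQ111/+ Hdac2 KO mice, of both sexes. The knockout was conditional: mice with 2 floxed Hdac2 alleles also carried the D9-Cre transgene, driven by a fragment of the Ppp1r1b gene that is active in medium-spiny neurons (MSNs) once the animals are several weeks old. All Hdac2 KO mice carried Cre and no Hdac2 WT mouse did, so the deletion and the transgene cannot be told apart. The WT mice could carry floxed alleles without Cre, and 2 of the Htt+/+ Hdac2 WT mice had 1.

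Huntingtin is a large scaffold protein that moves between vesicles, microtubule motors and the nucleus, and an expanded CAG repeat in its first exon, which lengthens a run of glutamines, causes Huntington's disease. MSNs, the projection neurons that make up most of the striatum, are the cells lost most heavily. Hap1 links huntingtin to the dynactin and kinesin motors, Hip1 and Hip1r tie clathrin-coated vesicles to actin, Pacsin1 shapes membranes during synaptic vesicle retrieval, Zdhhc17 and Zdhhc13 are palmitoyltransferases that attach lipid to huntingtin, Optn is an autophagy receptor, Setd2 methylates histone H3 at lysine 36 and Rasd2 (Rhes) is a striatum-enriched small GTPase that promotes SUMO modification of huntingtin.

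The repeat that differs between the alleles lies close behind the start codon of Htt. It is shown from the mouse reference genome, which holds the short tract of a wild-type allele. In the GRCm38 genome the first 84 bases of the coding sequence, in exon 1 of Htt (chr5:34761907-34761990, plus strand), read as follows, with the glutamine codons in capitals.
Htt: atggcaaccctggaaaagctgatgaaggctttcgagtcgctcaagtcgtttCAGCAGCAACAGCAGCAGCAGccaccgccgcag
The tract (chr5:34761958-34761978) runs from codon 18 to codon 24 and holds 7 glutamine codons, 6 of them CAG, with a CAA in the third place. The counts do not separate the alleles, so every value for Htt below takes both copies of the gene together. Per the paper, the knock-in allele carries human exon 1 and a part of human intron 1, whereas the counted reads were aligned to the mouse genome. How many reads from that part of the knock-in copy were counted was not tested.

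Because the members that rose and those that fell on loss of Hdac2 are set side by side below, the 250 bases before the RefSeq start of Htt and of 4 members that changed in both Htt genotypes are given here, 5′ to 3′ on the strand of the gene (RefSeq, GRCm38.p6). The capitals mark matches, on either strand, to the GC box GGGCGG, to TGACG, the core of the cAMP response element (CRE), or to the full element TGACGTCA, which contains the core on both strands. RefSeq promoter windows were matched for 9 of the 10 members, not for Zdhhc13. Where 2 starts were listed, that nearest the 5′ end of the gene in the count table is shown.
Htt, chr5:34761490-34761739, plus strand: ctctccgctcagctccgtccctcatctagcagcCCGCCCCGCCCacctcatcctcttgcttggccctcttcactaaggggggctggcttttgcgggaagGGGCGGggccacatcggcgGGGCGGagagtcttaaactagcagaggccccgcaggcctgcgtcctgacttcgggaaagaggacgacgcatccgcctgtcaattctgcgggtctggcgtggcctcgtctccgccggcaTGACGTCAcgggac
Hap1, chr11:100356129-100356378, minus strand: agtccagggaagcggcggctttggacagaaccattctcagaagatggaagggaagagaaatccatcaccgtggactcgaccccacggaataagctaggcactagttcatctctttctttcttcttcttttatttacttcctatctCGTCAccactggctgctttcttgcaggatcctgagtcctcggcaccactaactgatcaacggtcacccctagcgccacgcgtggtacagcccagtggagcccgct
Hip1, chr5:135545123-135545372, minus strand: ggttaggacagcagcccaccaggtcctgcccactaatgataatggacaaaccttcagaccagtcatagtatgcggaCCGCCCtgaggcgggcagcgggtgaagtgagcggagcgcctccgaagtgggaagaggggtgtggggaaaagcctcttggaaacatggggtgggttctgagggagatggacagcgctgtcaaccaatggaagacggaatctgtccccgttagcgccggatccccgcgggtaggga
Rasd2, chr8:75213694-75213943, plus strand: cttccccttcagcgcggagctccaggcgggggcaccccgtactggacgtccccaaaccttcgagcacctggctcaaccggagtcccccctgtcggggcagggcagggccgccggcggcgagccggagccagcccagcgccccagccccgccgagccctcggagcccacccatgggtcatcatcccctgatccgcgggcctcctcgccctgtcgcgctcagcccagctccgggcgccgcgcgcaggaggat
Pacsin1, chr17:27684989-27685238, plus strand: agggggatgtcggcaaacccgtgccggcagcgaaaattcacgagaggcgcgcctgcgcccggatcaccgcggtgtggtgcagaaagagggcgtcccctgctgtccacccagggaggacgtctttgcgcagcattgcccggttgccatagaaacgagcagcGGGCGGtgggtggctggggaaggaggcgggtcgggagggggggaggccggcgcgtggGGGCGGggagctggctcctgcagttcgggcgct

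None of the 3 motifs set the members that rose apart from those that fell. The Htt window held 4 GC boxes, the first of which shares 1 base with the second, and 1 full CRE. The Hap1 window held no GC box and 1 CRE core, and its GC content of 52.8% was close to the median of 52.4% over 32851 RefSeq promoter windows of the same length. The Hip1 window held 1 GC box and the Pacsin1 window 2, while the Rasd2 window, with a GC content of 75.2% and 27 CpG dinucleotides against a median of 6, held no match to any of the 3 motifs. Of all the promoter windows, 32.7% held a GC box, 17.8% a CRE core and 1.55% a full CRE, so these matches are a description of the letters and not of binding. The RefSeq start of Pacsin1 lies inside the gene interval of the count table, and those of the other 4 lie at or just before its 5′ end.

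The deposited values were read counts over each whole gene interval, introns included, and are given here as CPM, that is, counts per 1e+06 counts of a library after scaling with edgeR's TMM factors. The 35 libraries held 50970712 to 77867348 counts on genes, with a median of 57322618, and each of the 10 members had at least 445 counts in each library, so counting error was small beside the spread between mice. The count of Hdac2 itself was only a weak check of the labels, because it covers exons outside the deleted part and cells that never expressed Cre. Among Htt+/+ mice it was 103 ± 3.42 CPM with Hdac2 intact (SD, n = 8) and 94.4 ± 2.98 CPM after its deletion (SD, n = 9). Replicates 4 and 7 of the HttQ111/+ Hdac2 KO group stood apart: the mean log2 deviation of genes with transcripts over 6000 bases was -0.21 in replicate 4 and -0.14 in replicate 7, against -0.05 to 0.07 in the other 33 libraries. Extraction dates nearly followed the Hdac2 genotype, with only 1 Hdac2 KO mouse of each Htt genotype extracted on a day that also held Hdac2 WT mice. The libraries were striatal by their markers, since the 10 MSN markers summed to 6134 CPM or more in each library, whereas of 8 genes listed for hypothalamus or septum the peptides Avp, Oxt, Hcrt, Pmch and Gal were at or near 0, and Trh, Baiap3 and Zic1 had group means of 3.44 to 22.7 CPM. Genes of neighbouring tissue varied between libraries, with Slc17a7 of cortical projection neurons reaching 346 CPM and Ttr of choroid plexus 171 CPM in single libraries, and their part in the results was not tested.

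Per kilobase of the longest transcript, Rasd2 was by far the most abundant member, at 113 ± 16.3 CPM per kilobase (SD, n = 35), and its lowest library lay above the highest library of every other member. Hap1 followed at 36.9 ± 8.27 and Zdhhc17 at 32.4 ± 1.74 CPM per kilobase, and these overlapped. Pacsin1 came next at 24.6 ± 2.37 CPM per kilobase, within the lower range of Hap1, below all libraries of Zdhhc17 and above all libraries of the genes that followed. Htt at 13.9 ± 1.39, Hip1r at 12.4 ± 0.848, Zdhhc13 at 12.2 ± 0.781, Setd2 at 11.9 ± 1.06 and Hip1 at 11.4 ± 1.47 CPM per kilobase overlapped one another in that order. Optn was lowest at 4.25 ± 0.450 CPM per kilobase, with all its libraries below those of Hip1. Among all genes tested, Rasd2 ranked at the 97.7 percentile of this level, Htt at the 72.5 percentile and Optn at the 44.6 percentile. The counts include introns and the transcript length does not. Htt spans 150795 bases for a transcript of 13215, and Rasd2 8428 for 2810. The order of members close in level and the percentiles are therefore approximate.

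**Figure D1:**
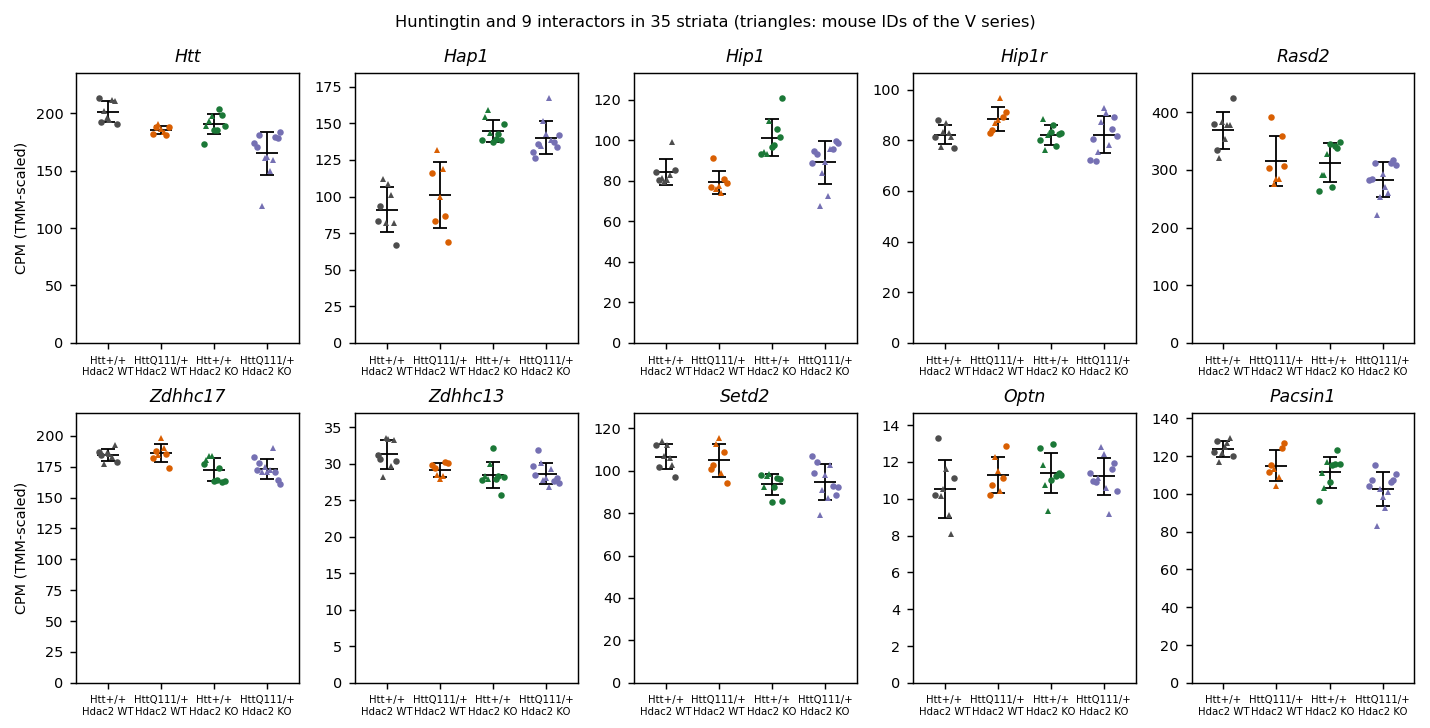
TMM-scaled CPM (y axis from 0) of the 10 genes in 35 striata, 1 point per mouse, grouped by Htt and Hdac2 genotype. Horizontal lines are group means, bars are SD and triangles are mice whose IDs belong to the V series. Hap1 was higher in all 9 Htt+/+ Hdac2 KO mice than in any Htt+/+ Hdac2 WT mouse, and all 7 HttQ111/+ Hdac2 WT mice lay below the 8 Htt+/+ Hdac2 WT mice for Htt.

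The first question was how the deletion of Hdac2 in MSNs altered these genes in mice with normal Htt. Loss of Hdac2 raised Hap1 and Hip1 and lowered Rasd2 and Pacsin1 in Htt+/+ striatum, so 4 of the 10 members passed an adjusted p of 0.05, against 17.8% of the 17126 genes tested. The largest of these changes was that of Hap1, by a factor of 1.57. The median log2 fold change over the members was -0.08, beside -0.00135 over all genes, and 9 of the 10 had an unadjusted p under 0.05, against 29% of all genes.

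Hap1 (chr11:100347327-100356087 of GRCm38, minus strand) ranged from 66.6 to 112 CPM in the 8 Htt+/+ Hdac2 WT mice, with a median of 88.2 CPM. In the 9 Htt+/+ Hdac2 KO mice it ranged from 137 to 159 CPM, with a median of 143 CPM. The groups did not overlap, which held for no other member in this comparison and for 4.73% of all genes tested. The log2 fold change was 0.65 (SE 0.086, 95% interval 0.47 to 0.83), with an adjusted p of 2.03e-06 by the edgeR quasi-likelihood test, Benjamini-Hochberg adjusted. Hap1 also varied more among the Hdac2 WT mice, with an SD of 15.5 CPM (n = 8), than among the Hdac2 KO mice, with an SD of 7.78 CPM (n = 9), although that difference in spread was not tested. Gm20394, an entry inside the Hap1 interval, drew 750 counts over all 35 libraries together and at most 40 in 1 library, against at least 3413 for Hap1. On 27 May, the only day that held both genotypes among Htt+/+ mice, the 1 Hdac2 KO mouse had 149 CPM and the 3 Hdac2 WT mice 81.7, 101 and 112 CPM.

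In HttQ111/+ mice Hap1 rose as well on loss of Hdac2. It ranged from 68.8 to 132 CPM in the 7 HttQ111/+ Hdac2 WT mice, with a median of 99.98 CPM, and from 127 to 167 CPM in the 11 HttQ111/+ Hdac2 KO mice, with a median of 137 CPM. Of the KO mice, 9 lay above every WT mouse of that Htt genotype. The fold change was 1.34 (95% interval 1.2 to 1.5), with an adjusted p of 0.000232 by the edgeR quasi-likelihood test, Benjamini-Hochberg adjusted. The difference between this response and that in Htt+/+ mice was -0.23 on the log2 scale (SE 0.104), with an unadjusted p of 0.0363 and an adjusted p of 0.875 by the same test. Of all genes, 0.00577% passed that test of the difference, and no member did. With extraction date taking the place of surrogate variables in the fit, the change of Hap1 in Htt+/+ mice stayed past the threshold (log2 fold change 0.59, adjusted p = 0.00752), and that in HttQ111/+ mice did not (log2 fold change 0.45, adjusted p = 0.0940). Few Hdac2 KO mice shared a day with Hdac2 WT mice, so this setting rests on few mice.

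Hip1 (chr5:135406523-135545122, minus strand) moved the same way with a smaller size. It ranged from 79.6 to 99.1 CPM in Htt+/+ Hdac2 WT mice (median 81.9 CPM, n = 8) and from 93.1 to 121 CPM in Htt+/+ Hdac2 KO mice (median 97.4 CPM, n = 9). A single Hdac2 WT mouse, replicate 8, reached into the range of the KO mice, and the others were at or below 85.2 CPM. The log2 fold change was 0.22 (SE 0.035, adjusted p = 2.08e-05) in Htt+/+ mice and 0.15 (SE 0.030, adjusted p = 0.000589) in HttQ111/+ mice, by the edgeR quasi-likelihood test, Benjamini-Hochberg adjusted. The HttQ111/+ Hdac2 KO mice ran from 67.4 to 99.8 CPM, with replicates 4 and 7, the libraries low in long transcripts, lowest at 67.4 and 72.4 CPM. Without those 2 libraries the log2 fold change in HttQ111/+ mice was 0.22 (adjusted p = 9.47e-05 by the same test). Over 15 other settings the change of Hip1 in HttQ111/+ mice passed in 8, at log2 fold changes of 0.084 to 0.33. That in Htt+/+ mice passed in 14 of 15. Hip1r, the close relative of Hip1 (chr5:123973628-124003211, plus strand), did not rise with it. Among Htt+/+ mice the mean was 82.2 ± 3.85 CPM with Hdac2 (SD, n = 8) and 82.1 ± 3.81 CPM without it (SD, n = 9). The fitted log2 fold change there was -0.10 (adjusted p = 0.109 by the edgeR quasi-likelihood test). In HttQ111/+ mice Hip1r was lower without Hdac2, at 82.1 ± 7.35 CPM (SD, n = 11) against 88.4 ± 4.68 CPM (SD, n = 7), a log2 fold change of -0.12 (SE 0.038, adjusted p = 0.0254 by the edgeR quasi-likelihood test). The latter change passed in 5 of 15 other settings. The Hip1r responses in the 2 Htt genotypes differed by -0.016 on the log2 scale (adjusted p = 0.992 by the same test).

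**Figure D2:**
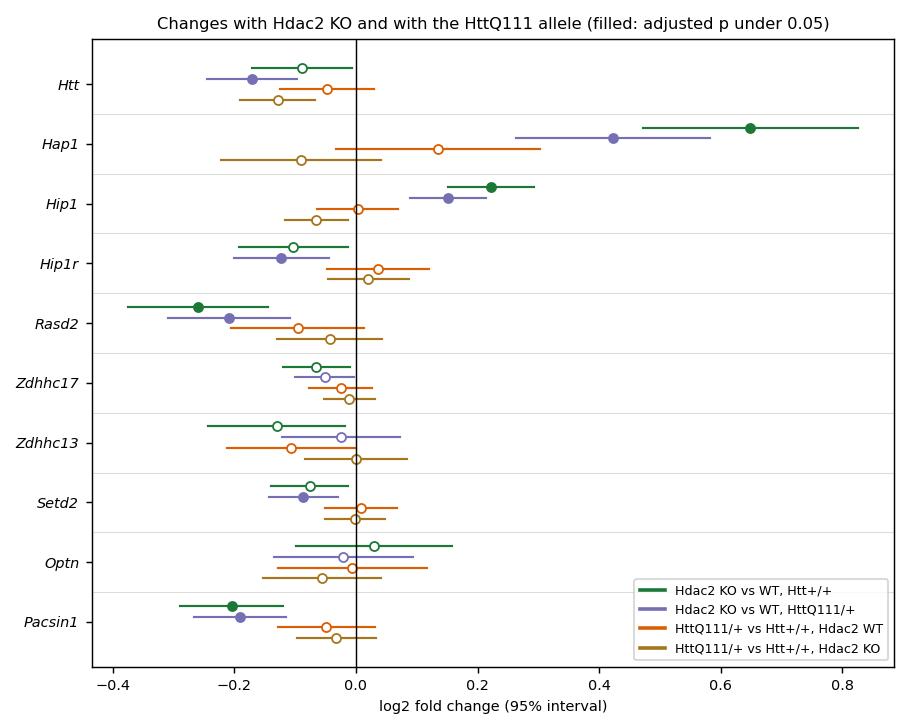
Log2 fold changes of the 10 genes (x axis, points with 95% intervals) on loss of Hdac2 in each Htt genotype and with the HttQ111 allele in each Hdac2 genotype, from the edgeR quasi-likelihood fit. Filled points passed an adjusted p of 0.05. All filled points belong to loss of Hdac2, and the Htt gene in Hdac2 KO mice sat at -0.13 without passing the threshold.

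Among the genes that fell, Rasd2 (chr8:75213944-75222371, plus strand) ranged from 320 to 425 CPM in Htt+/+ Hdac2 WT mice (median 377 CPM, n = 8) and from 263 to 348 CPM in Htt+/+ Hdac2 KO mice (median 327 CPM, n = 9). The ranges overlapped, and all 9 KO mice lay below the WT median. The fitted change was -16.5% (95% interval -22.8% to -9.56%, adjusted p = 0.00115 by the edgeR quasi-likelihood test). In HttQ111/+ mice Rasd2 ranged from 275 to 392 CPM in Hdac2 WT (median 303 CPM, n = 7) and from 221 to 318 CPM in Hdac2 KO (median 284 CPM, n = 11). The change there was -13.5% (95% interval -19.3% to -7.20%, adjusted p = 0.00314 by the edgeR quasi-likelihood test). With extraction date taking the place of surrogate variables the change in HttQ111/+ mice came to a log2 fold change of -0.0028 (adjusted p = 0.995), and that in Htt+/+ mice to -0.14 (adjusted p = 0.581). Because few Hdac2 KO mice shared a day with Hdac2 WT mice, this setting cannot decide whether Rasd2 changed.

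Pacsin1 (chr17:27655509-27708659, plus strand) fell to a like extent in both Htt genotypes. It ranged from 117 to 130 CPM in Htt+/+ Hdac2 WT mice (median 123 CPM, n = 8) and from 96.5 to 123 CPM in Htt+/+ Hdac2 KO mice (median 115 CPM, n = 9), and 8 of the 9 KO mice lay below every WT mouse. The log2 fold change was -0.20 (SE 0.041, adjusted p = 0.000607) in Htt+/+ mice and -0.19 (SE 0.037, adjusted p = 0.000385) in HttQ111/+ mice, by the edgeR quasi-likelihood test, Benjamini-Hochberg adjusted. The HttQ111/+ Hdac2 KO mice ran from 83.2 to 115 CPM, and replicates 4 and 7 were again lowest. Without those 2 libraries the change in HttQ111/+ mice was -0.14 on the log2 scale (adjusted p = 0.0218). With extraction date in the fit neither change passed (adjusted p = 0.476 and 0.640), but that setting rests on the few Hdac2 KO mice that shared a day with Hdac2 WT mice.

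In HttQ111/+ mice 7 of the 10 members passed on loss of Hdac2, against 16.5% of the 17169 genes tested, and no member had groups free of overlap, against 1.44% of all genes. Beside Hap1, Hip1, Rasd2, Pacsin1 and Hip1r, these were Htt itself and Setd2. Htt (chr5:34761740-34912534, plus strand) ranged from 181 to 190.3 CPM in the 7 HttQ111/+ Hdac2 WT mice, with a median of 186 CPM. In the 11 HttQ111/+ Hdac2 KO mice it ranged from 119 to 184 CPM, with a median of 171 CPM, and 10 of them lay below every HttQ111/+ Hdac2 WT mouse. The change was -11.2% (95% interval -15.6% to -6.55%, adjusted p = 0.000998 by the edgeR quasi-likelihood test). It passed in 13 of 15 other settings. With extraction date in the fit it did not pass, but that setting rests on the few Hdac2 KO mice that shared a day with Hdac2 WT mice. Without replicates 4 and 7 the log2 fold change was -0.12 (adjusted p = 0.0167), against -0.17 with them. In Htt+/+ mice the log2 fold change of Htt on loss of Hdac2 was -0.09 (SE 0.040, adjusted p = 0.140). The response of Htt to loss of Hdac2 differed between the Htt genotypes by -0.08 on the log2 scale, with an unadjusted p of 0.110 and an adjusted p of 0.887 by the edgeR quasi-likelihood test.

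Setd2 (chr9:110532597-110618148, plus strand) had lower means in both KO groups. These were 107 ± 5.89 CPM (SD, n = 8) against 93.5 ± 5.01 CPM (SD, n = 9) in Htt+/+ mice and 105 ± 7.66 CPM (SD, n = 7) against 94.6 ± 8.27 CPM (SD, n = 11) in HttQ111/+ mice. The fit with surrogate variables gave smaller differences than these means, with log2 fold changes of -0.08 (adjusted p = 0.0887) and -0.09 (adjusted p = 0.0288), by the edgeR quasi-likelihood test, Benjamini-Hochberg adjusted. The second of these ended at an adjusted p of 0.128 without replicates 4 and 7, in which Setd2 was lowest of the 11 mice. The palmitoyltransferase Zdhhc17 (chr10:110941782-111010003, minus strand) averaged 184 ± 4.86 CPM (SD, n = 8) and 172 ± 9.20 CPM (SD, n = 9) in the Htt+/+ groups, and its log2 fold change was -0.07 (adjusted p = 0.09997 by the edgeR quasi-likelihood test). Its relative Zdhhc13 (chr7:48789003-48827440, plus strand) averaged 31.3 ± 1.98 CPM (SD, n = 8) and 28.4 ± 1.75 CPM (SD, n = 9), and its log2 fold change was -0.13 (adjusted p = 0.106 by the edgeR quasi-likelihood test). Optn (chr2:5020642-5064051, minus strand) was at 10.5 ± 1.58 CPM (SD, n = 8) and 11.4 ± 1.09 CPM (SD, n = 9). Its 95% interval of -0.10 to 0.16 on the log2 scale bounds a change in Htt+/+ mice, and it passed in none of the 12 comparisons.

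The second question was whether the HttQ111 allele altered the level of its own transcript or of its interactors. No member passed in Hdac2 WT mice, where 0.403% of 17133 genes did, and none in Hdac2 KO mice, where 0.00584% of 17110 genes did, by the edgeR quasi-likelihood test, Benjamini-Hochberg adjusted. At an unadjusted p under 0.05 there was 1 member in Hdac2 WT mice, Zdhhc13, against 10.9% of all genes, and there were 2 in Hdac2 KO mice, Htt and Hip1, against 7.52%. DESeq2 called no member in Hdac2 WT mice (0.887% of all genes) and 1, Htt, in Hdac2 KO mice (0.245% of all genes).

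The Htt gene itself had lower values in HttQ111/+ than in Htt+/+ mice of the Hdac2 WT background. The 8 Htt+/+ Hdac2 WT mice ranged from 191 to 213 CPM (median 199 CPM) and the 7 HttQ111/+ Hdac2 WT mice from 181 to 190.3 CPM (median 186 CPM). These ranges did not overlap, which held for 0.158% of the genes tested and for no other member. The gap between them was narrow, from 190.3 to 190.9 CPM. In the fit the log2 fold change was -0.05 (95% interval -0.13 to 0.03, adjusted p = 0.711 by the edgeR quasi-likelihood test), smaller than the -0.12 found without surrogate variables (adjusted p = 0.322). In Hdac2 KO mice the 9 Htt+/+ mice ranged from 173 to 204 CPM (median 189 CPM) and the 11 HttQ111/+ mice from 119 to 184 CPM (median 171 CPM), and these ranges overlapped, as did those of all other genes tested (0% without overlap). Of the 11 HttQ111/+ mice, 6 lay below every Htt+/+ mouse.

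For Htt in Hdac2 KO mice the log2 fold change with the HttQ111 allele was -0.13 (SE 0.030, 95% interval -0.19 to -0.07), with an unadjusted p of 0.000195 and an adjusted p of 0.130 by the edgeR quasi-likelihood test. It ranked 25 of the 17110 genes by p. Without replicates 4 and 7 the value was -0.13 (adjusted p = 0.117), so it was as large without the libraries low in long transcripts. Averaged over both Hdac2 genotypes, the HttQ111 allele went with a change in Htt of -6.02% (95% interval -9.28% to -2.64%, adjusted p = 0.0692 by the edgeR quasi-likelihood test), when 1.27% of 17346 genes passed and no member did. Under 9 of the 14 other settings this average passed, at log2 fold changes of -0.09 to -0.18.

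Set against Htt+/+ Hdac2 WT mice, the HttQ111/+ Hdac2 KO mice carried both alterations. Of the members 6 passed, against 21.2% of 17088 genes, and 4 had groups that did not overlap, against 3.34% of all genes. Hap1 (log2 fold change 0.56) and Hip1 (0.15) were higher, and Htt (-0.22), Rasd2 (-0.31), Pacsin1 (-0.24) and Zdhhc17 (-0.08) were lower. The 4 genes without overlap were Htt, Hap1, Rasd2 and Pacsin1, whose adjusted p lay between 6.48e-06 and 6.30e-05 by the edgeR quasi-likelihood test, Benjamini-Hochberg adjusted. This comparison shares its groups with those above, so it is not independent of them.

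The third question was whether the members varied with the length of the CAG repeat among the 18 HttQ111/+ mice. The repeat lengths fell into 2 sets, 110 to 118 repeats in 10 mice with A or Z series IDs and 131 to 144 repeats in 8 mice with V series IDs, with none between. Repeat length and ID series therefore cannot be told apart among HttQ111/+ mice, and all 5 HttQ111/+ Hdac2 KO mice with long repeats were male. Htt+/+ mice of both kinds of series were used as a reference: 8 of the V series against 9 of the A and Z series.

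Rasd2 was the 1 member that differed between long and short repeats, when 2.13% of 17346 genes passed. It ranged from 221 to 293 CPM in the 8 mice with 131 to 144 repeats and from 283 to 392 CPM in the 10 mice with 110 to 118 repeats. In Hdac2 WT mice the 3 with long repeats had 275, 285 and 285 CPM and the 4 with short repeats 303, 306, 359.6 and 392 CPM, so these did not overlap. The share of all genes without overlap between sets this small was not counted. In Hdac2 KO mice the 5 with long repeats ran from 221 to 293 CPM and the 6 with short repeats from 283 to 318 CPM. The log2 fold change, averaged over Hdac2 genotypes, was -0.21 (SE 0.051, a change of -13.8%), with an adjusted p of 0.0206 by the edgeR quasi-likelihood test, Benjamini-Hochberg adjusted. In Htt+/+ mice the V series differed from the others by -0.07 in Rasd2 (adjusted p = 0.688), when 0.179% of genes passed and no member did. The test of the repeat difference beyond that of the series gave -0.15 for Rasd2 (SE 0.049, unadjusted p = 0.00583, adjusted p = 0.134 by the edgeR quasi-likelihood test), when 1.97% of genes passed and no member did. Without replicate 4 of the HttQ111/+ Hdac2 KO group, the lowest of all mice at 221 CPM, the difference between long and short repeats was -0.21 (adjusted p = 0.0441) with the surrogate variables kept and -0.18 (adjusted p = 0.128) with them estimated anew. With the surrogate variables kept it missed the threshold without replicate 1 (adjusted p = 0.0605) or replicate 7 (0.0514) of that group or replicate 3 of the HttQ111/+ Hdac2 WT group (0.104).

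Markers of MSNs were lower with long repeats, as Rasd2 was, and were mixed on loss of Hdac2. Of the 10 MSN markers 7 were lower with long repeats by the same test, with a median log2 fold change of -0.20 over the list, beside 0.00333 over all genes. For the repeat difference beyond that of the series 8 were lower, when Rasd2 did not pass. On loss of Hdac2, which lowered Rasd2, 2 markers rose and 2 fell past the threshold in Htt+/+ mice, where 17.8% of all genes passed. In HttQ111/+ mice 2 rose and none fell, where 16.5% of all genes passed. The median over the list was -0.08 in Htt+/+ mice, with 2 of the 10 markers above 0, beside -0.00135 over all genes. In HttQ111/+ mice it was -2.09e-05, with 5 of the 10 above 0, beside -0.00437 over all genes. Of the same markers 5 were lower with the HttQ111 allele in Hdac2 WT mice, where the 10 summed to 7012 ± 973 CPM (SD, n = 7) against 8955 ± 423 CPM in Htt+/+ mice (SD, n = 8). In whole striatum fewer MSNs and less RNA per MSN cannot be told apart, and the part of the MSN content in the level of Rasd2 was not tested. No marker of the other 8 lists passed in the comparison of long with short repeats, but some lists had lower medians: the 4 endothelial markers were all below 0 with a median of -0.18, and the 3 choroid plexus markers tested were all below 0 with a median of -0.48. The medians of the other 6 lists lay between -0.12 and 0.08, and the part of these cells in the level of Rasd2 was not tested.

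**Figure D3:**
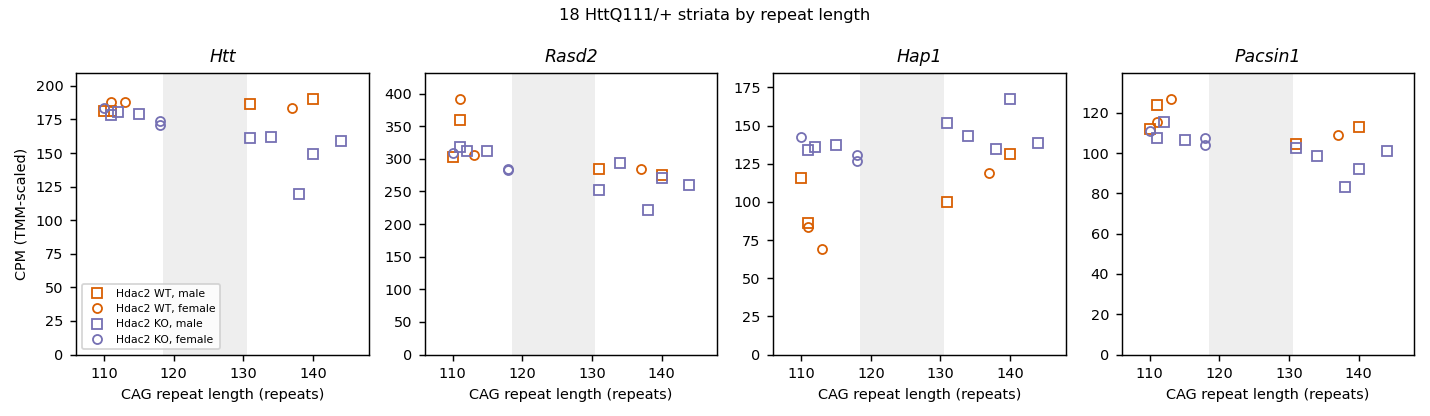
Scaled CPM (y axis from 0) of Htt, Rasd2, Hap1 and Pacsin1 in the 18 HttQ111/+ mice against CAG repeat length (x axis, repeats); squares are males, circles females, orange Hdac2 WT and purple Hdac2 KO, and the grey band is the range in which no mouse fell. Rasd2 was at 293 CPM or below in all 8 mice with long repeats, and the 5 Hdac2 KO mice with long repeats had the 5 lowest values of Htt.

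Htt had its lowest values in Hdac2 KO mice with long repeats. The 5 HttQ111/+ Hdac2 KO mice with long repeats had 119, 149.6, 159, 161 and 162 CPM, and the 6 with short repeats had 171, 174, 179, 179, 181 and 184 CPM. These did not overlap, and the share of all genes without overlap between these 2 sets was not counted. In Hdac2 WT mice the 3 with long repeats had 183, 186 and 190.3 CPM and the 4 with short repeats 181 to 188 CPM, which overlapped. Over both Hdac2 genotypes the fitted log2 fold change was -0.07 (SE 0.044, adjusted p = 0.496 by the edgeR quasi-likelihood test), and the difference between the Hdac2 genotypes in the repeat effect was not tested. The 2 lowest values were those of the libraries low in long transcripts, and without them the other 3 long-repeat KO mice, at 159 to 162 CPM, still lay below all 6 with short repeats. In a fit of the Hdac2 KO libraries alone, without surrogate variables, the difference was -0.24 (adjusted p = 0.0269 by the edgeR quasi-likelihood test), when 3.62% of all genes passed. In one of the Hdac2 WT libraries alone it was 0.01 (adjusted p = 0.934 by the same test), when 0.916% of all genes passed. Leaving out both libraries low in long transcripts gave -0.05 over both genotypes (adjusted p = 0.774 by the same test), when 1.58% of all genes passed.

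Within the set of short repeats and within the set of long repeats no gene changed with the number of repeats at an adjusted p of 0.05 (0% and 0% of 17346 genes), while 1414 and 1254 genes had an unadjusted p under 0.05 by the edgeR quasi-likelihood test. Of the members Rasd2 alone had an unadjusted p under 0.05, among short repeats, at 0.02 per repeat on the log2 scale (unadjusted p = 0.00736, adjusted p = 0.485). That slope was opposite in sign to the difference between the sets, but it kept its sign in only 5 of 8 other settings (-0.022 to 0.027 per repeat). Hap1 was at 136 ± 20.3 CPM (SD, n = 8) with long and 116 ± 26.5 CPM (SD, n = 10) with short repeats, a log2 fold change of 0.12 (SE 0.108, adjusted p = 0.676 by the edgeR quasi-likelihood test). Pacsin1 was at 100.5 ± 9.41 CPM (SD, n = 8) and 113 ± 7.60 CPM (SD, n = 10), a log2 fold change of -0.06 (SE 0.055, adjusted p = 0.651 by the same test). The 95% intervals of the remaining members for long against short repeats lay within -0.21 and 0.21 on the log2 scale.

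**Figure D4:**
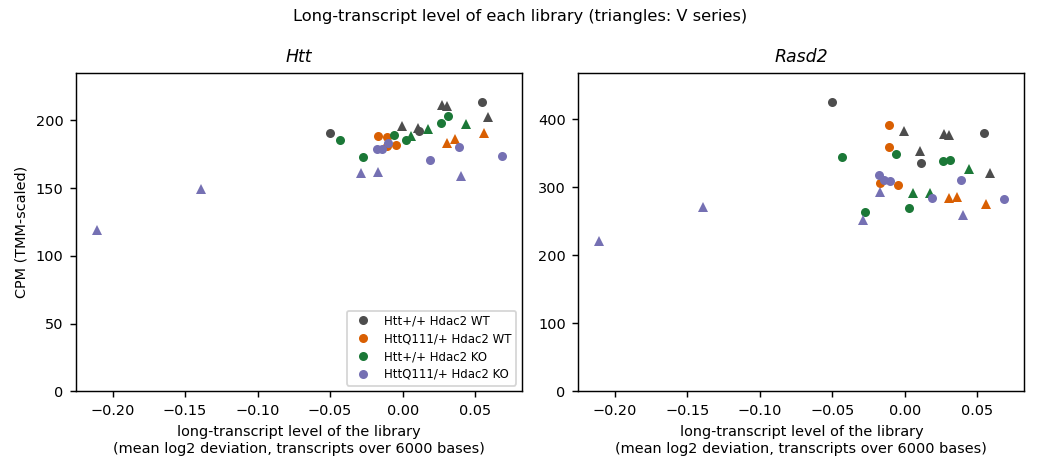
Scaled CPM of Htt and Rasd2 (y axes from 0) in 35 libraries against the long-transcript level of each library (x axis, mean log2 deviation of genes with transcripts over 6000 bases). Triangles are V series mice and colours are genotype groups. Replicates 4 and 7 of the HttQ111/+ Hdac2 KO group lie at -0.21 and -0.14, apart from the other 33 libraries between -0.05 and 0.07.

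The libraries low in long transcripts touched the members unequally. The longest transcript is 13215 bases for Htt, 8350 for Setd2 and 7835 for Hip1, and replicates 4 and 7 were the 2 lowest of the 11 HttQ111/+ Hdac2 KO mice for each of these and for Pacsin1, with 4566 bases. For Hap1, with 3316 bases, replicate 7 was the highest of the 11 mice at 167 CPM and replicate 4 the fourth lowest at 135 CPM. For Zdhhc13, at 2410 bases the shortest member, replicate 7 was lowest and replicate 4 the second highest. The order did not follow length throughout: for Rasd2, with 2810 bases, replicate 4 was the lowest of the 11, and for Hip1r, with 6735 bases, replicate 4 was the third from the bottom and replicate 7 next to the top. Their part in the results of Htt, Setd2, Hip1 and Pacsin1 is given above by the values without them.

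Across all 35 libraries the genes whose log2 level was most like that of Htt, among 14111 expressed genes, included Trrap and Zmiz1, with Pearson r of 0.88 and 0.86. For Rasd2 they were Bcr, Mink1 and Arf3, with r of 0.93, 0.93 and 0.91. The points share genotype, sex, date and the length bias just described, so these are descriptions only.

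The partners of the members were set beside the shares of all genes that passed on loss of Hdac2. These were 17.8% in Htt+/+ and 16.5% in HttQ111/+ mice, and no list was tested against them. Among 22 other huntingtin-binding proteins, 3 passed in Htt+/+ mice (1 up, 2 down) and 7 in HttQ111/+ mice (2 up, 5 down). The count in Htt+/+ mice was below the share of all genes. The transcriptional repressor Rest, which huntingtin holds in the cytoplasm, had a log2 fold change of 0.34 in HttQ111/+ mice (adjusted p = 0.00168), and Itpr1, the calcium release channel of the endoplasmic reticulum, had -0.30 in Htt+/+ mice (adjusted p = 3.35e-05) and -0.23 in HttQ111/+ mice (adjusted p = 0.000274), by the edgeR quasi-likelihood test, Benjamini-Hochberg adjusted. Among 18 partners of Hap1 and vesicle motors, 4 passed in each Htt genotype, somewhat above those shares. Ahi1, which forms a complex with Hap1, rose too, by 0.33 in Htt+/+ and 0.22 in HttQ111/+ mice on the log2 scale. The kinesin adaptor Trak2 rose by 0.29 and 0.17, and the kinesin heavy chain Kif5b by 0.19 in Htt+/+ mice. Of 26 clathrin endocytosis genes, 5 passed in Htt+/+ (1 up, 4 down) and 8 in HttQ111/+ mice (2 up, 6 down). Here the count in Htt+/+ mice was near the share of all genes. Clathrin heavy chain, Cltc, had log2 fold changes of -0.23 and -0.15, and dynamin 1, Dnm1, of -0.17 in both.

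Of the 19 other palmitoyltransferases tested from a list of 22, 3 rose in Htt+/+ mice and 2 in HttQ111/+ mice, and none fell. Both counts were below the shares of all genes, 17.8% and 16.5%. Zdhhc12 was at 8.04 ± 0.712 CPM (SD, n = 9) after loss of Hdac2 against 5.34 ± 0.448 CPM (SD, n = 8) in Htt+/+ mice, a log2 fold change of 0.53 (adjusted p = 8.40e-05 by the edgeR quasi-likelihood test), and one of 0.44 in HttQ111/+ mice. Among 17 autophagy receptors and partners of Optn, 7 passed in Htt+/+ mice (3 up, 4 down) and 6 in HttQ111/+ mice (2 up, 4 down), with the receptor Nbr1 at -0.22 and -0.16. Of 11 genes of H3K36 methylation, 3 fell in Htt+/+ and 2 in HttQ111/+ mice, among them the demethylase Kdm4b at -0.35 and -0.24 and the methyltransferase Ash1l at -0.17 and -0.14. Their count in HttQ111/+ mice was near the share of all genes. Of 14 partners of Rasd2, 2 passed in Htt+/+ (1 up, 1 down) and 3 in HttQ111/+ mice (1 up, 2 down), both near the shares of all genes. With the HttQ111 allele no gene of these lists passed in either Hdac2 genotype or on average.

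Around Htt, 36 genes start within 1000000 bases of its start on chromosome 5, and 26 were tested. On loss of Hdac2 1 rose and 7 fell in Htt+/+ mice, and 5 fell and none rose in HttQ111/+ mice. Over all genes tested 17.8% and 16.5% passed in these comparisons, so the count in HttQ111/+ mice was near the background and nothing particular to the neighbourhood was tested. The adrenergic receptor Adra2c had log2 fold changes of -0.46 and -0.40, Zfyve28 of -0.42 and -0.34, and Rgs12, a regulator of G protein signalling next to Htt, of -0.32 and -0.40, each with an adjusted p of at most 0.00415 by the edgeR quasi-likelihood test. With the HttQ111 allele none of the neighbours passed in either Hdac2 genotype.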

How the data were processed

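Raw read counts over whole gene intervals, deposited by the authors, were used: per their notes, stranded poly(A) libraries were aligned with GSNAP to GRCm38 and counted at Ensembl genes with bedtools, and strand use in counting was not given in the sources used here. Of 39109 entries, spans of up to 250 bases (6152), 2 mitochondrial rRNAs and 92 spike-ins were left out, leaving 32863. Genes with 6 or more counts in each library of 1 of the groups compared were tested over all 35 libraries with edgeR 4.0.16 (R 4.3.3; TMM, glmQLFit, glmQLFTest, Benjamini-Hochberg over all genes), with surrogate variables from sva 3.50.0: 9 in fits of the 4 genotype groups and 8 where repeat set was added. There were 12 comparisons. Nothing says replicates were other than separate mice. In simulated data, 91 of 100 genes with a log2 change of 0.5 were recovered in the comparison of Hdac2 genotypes in Htt+/+ mice. Those data had 1 surrogate variable, the same dispersion for all genes and no batch that followed Hdac2. Every member change in that comparison but that of Hap1 was smaller than 0.5, so the simulation does not give the power for them. Alternatives were DESeq2 1.42.0, other covariates, filters and left-out libraries. Replicate numbers were not used as pairs. Named partners were taken from the 3 per list with the largest change past the threshold, and not all of these are named. The members and gene lists were chosen with earlier results of these data known. Promoters came from RefSeq, and transcript lengths from GENCODE.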

Additional observations from a re-analysis of the deposited data

Results flagged for a closer look

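Over all members, 30 tests for a sample far from the rest of its group were run, and 2 passed, where chance alone gives about 1 in 20. Both were for Hip1, and the group of 11 mice was not tested. Hip1 was high in replicate 8 of the Htt+/+ Hdac2 WT group, at 99.11 CPM against 79.58 to 85.19 CPM in the other 7 mice. It was high in replicate 2 of the HttQ111/+ Hdac2 WT group, at 91.18 CPM against 73.87 to 80.83 CPM in the other 6.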

How the results depend on the processing

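The loss-of-Hdac2 results changed with the handling of extraction date, sex and other covariates. The number of members past the threshold in Htt+/+ mice was 4. It became 7 without surrogate variables, with sex or the long-transcript level in their place, with only the compared groups, and without the mice with 1 floxed allele. In those settings 22.4% to 29.7% of all genes passed. The member count was 2 with extraction date and 1 in males only, when 4.8% and 7.74% of all genes passed. In HttQ111/+ mice it was 7, against 0 with extraction date (1.93% of all genes) and 2 in males only (7.46%). For HttQ111/+ Hdac2 KO against Htt+/+ Hdac2 WT mice it went from 6 to 1 with extraction date (4.67%). The main fits called 17.8%, 16.5% and 21.2% of all genes, so those shares moved the same way. Few Hdac2 KO mice shared a day with Hdac2 WT mice, so the extraction date setting can hardly estimate loss of Hdac2. Replicate numbers did not pair the samples: same-numbered samples of different groups correlated at -0.32 to 0.50 (median 0.06), with 17 of 45 pairs over 0.1. With the replicate block the counts were 7 in Htt+/+ mice, 4 in HttQ111/+ mice, 1 for the average HttQ111 effect and 2 for long against short repeats. Of all genes 25.4%, 10.8%, 2.1% and 3.61% passed there. For the HttQ111 allele, where no member passed, 1 member (Rasd2) passed in Hdac2 WT mice with ID series and with sex and ID series, and 1 (Htt) in Hdac2 KO mice with DESeq2. Of all genes 4.89%, 5.01% and 0.245% passed in these settings. The average HttQ111 effect had 1 member (Htt) with DESeq2, extraction date, sex, the long-transcript level, no surrogate variables and without replicates 4 and 7, and 3 (Htt, Rasd2, Pacsin1) with ID series, with or without sex. Of all genes 1.24% to 2.32% passed in the settings with 1 member, and 3.63% and 3.7% in those with 3.

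For long against short repeats the count of 1 became 5 with A series, 4 with the long-transcript level, 3 without surrogate variables, 2 with sex and 0 in Hdac2 WT libraries only, in males only and without replicate 4 of the HttQ111/+ Hdac2 KO group. Of all genes 13.2%, 10.4%, 8.32%, 7.36%, 0.916%, 1.91% and 2.19% passed in these settings, in that order. Leaving out 1 mouse at a time gave 0 to 1, when 0.939% to 2.42% of all genes passed. For the V series in Htt+/+ mice, 1 member (Zdhhc17) passed with A series, when 6.46% of all genes did, against 0. Among the 35 log2 fold changes of single members that passed under at least 1 setting, signs turned only in long against short repeats. Htt came to 0.012 in Hdac2 WT libraries only, Hip1 to 0.0088 without replicate 4, and Hap1 to between -0.0020 and 0.19 when 1 mouse was left out. Zdhhc17, at -0.0012, became 0.092 with A series, 0.038 in Hdac2 KO and 0.065 in Hdac2 WT libraries only, 0.011 without replicate 4, 0.0079 without replicates 4 and 7, 0.060 with the long-transcript level, 0.054 in males only, 0.038 without the count filter, 0.052 without surrogate variables, 0.041 with the replicate block and 0.048 with sex, and -0.0092 to 0.022 when 1 mouse was left out. The causes were not tested. The settings with the long-transcript level or without replicates 4 and 7 were chosen after seeing the data. Of these 35 values under other settings, 455 kept direction and side of the threshold, 75 newly passed, 64 no longer passed and 22 turned in sign. Members near 0 that did not pass turned in sign elsewhere too, such as Hip1 and Optn with the HttQ111 allele in Hdac2 WT mice, each with the same sign in only 4 of 15 settings, and Setd2 for long against short repeats, in 6 of 13. At this depth the spread between mice, not counting error, limits the precision.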
